A study of Mus musculus with 12 samples.

Results

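The glutathione transferases and antioxidant enzymes of the mouse ovary were taken by gene symbol. They are the cytosolic, kappa and microsomal glutathione transferases, the glutathione peroxidases, the peroxiredoxins and sulfiredoxin (Srxn1), the superoxide dismutases, catalase (Cat), the enzymes of glutathione synthesis and reduction, the thioredoxins and their reductases, and the quinone reductase Nqo1. The rule found 53 of the 24255 genes in the deposited table, and no measured value entered it. RNA sequencing was done on whole ovaries of C57BL/6 mice aged 6 months, each given 5 IU of PMSG, a gonadotropin that stimulates follicles, and killed 46 h later. The CKO group (n = 5 libraries) carries a Gdf9-Cre mediated oocyte-conditional knockout of Mtor, a kinase of nutrient and growth signalling, and the WT group (n = 7 libraries) is wild type. Gdf9 is an oocyte gene, so the other ovarian cells of a CKO mouse keep Mtor.

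Glutathione is the main small thiol of cells, made by glutamate-cysteine ligase (Gclc and its modifier Gclm) and glutathione synthetase (Gss). Glutathione transferases join it to electrophiles, glutathione peroxidases use it to reduce peroxides, and glutathione reductase (Gsr) returns the oxidised form with NADPH. Superoxide dismutases turn superoxide into hydrogen peroxide, which catalase, glutathione peroxidases and peroxiredoxins then remove, and thioredoxins with their reductases return the peroxiredoxins to the active state. Many of these genes carry antioxidant response elements, which are bound by the transcription factor NRF2 (Nfe2l2) when its inhibitor KEAP1 lets it accumulate. In the ovary, steroid synthesis in follicles and interstitial cells, ovulation and phagocytosis by macrophages are known sources of reactive oxygen.

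Levels are given as FPKM, which scales fragments to transcript length and to the mapped total. The upper quartile of FPKM lay between 12.9 and 13.2 in all 12 libraries, and 14945 to 16083 genes had a value above 0. Depth is not stated. For 855 single-transcript genes below 1 FPKM, the median value scaled to 1 kb ran from 0.482 to 0.699 FPKM across libraries, and levels under that size are backed by few fragments. Since 11 of 80 ribosomal protein genes are at 0 in every library, a 0 in this table need not mean no RNA, and such genes are only said to be listed at 0. Gapdh, a gene that cells in general use, was at only 1.06 to 7.05 FPKM across libraries. A low value may thus also miss RNA, so ranks, sums and shares between genes hold only for the listed values. The labels do not name animals, so p-values measure the spread between libraries. Mtor itself was 5.02 ± 0.499 FPKM in CKO ovaries and 4.70 ± 0.702 FPKM in WT ovaries (SD, n = 5 and 7), with an exact two-sided permutation p = 0.4053 over 792 splits, and whole-organ RNA does not check an oocyte-restricted deletion. Oocyte markers were present in both groups, with summed FPKM of 21.7 to 79.6 in CKO and 77.0 to 252.5 in WT. Summed macrophage markers ran from 1637 to 4650 FPKM in CKO and from 474.5 to 1474 FPKM in WT, and summed stroma markers from 2908 to 3845 FPKM in CKO and from 1200 to 1924 FPKM in WT, so neither overlapped. Granulosa markers summed to 1350 to 2511 FPKM in CKO and 3762 to 6694 FPKM in WT. Fewer cells of a type and less RNA per cell cannot be told apart in these bulk samples, and the part of these shifts in the results on antioxidant genes was not tested. CKO replicates 2 and 3 held oviduct transcripts, mainly Ovgp1, and CKO replicates 1 and 5 had the highest red cell and macrophage levels. Calls that were lost without either pair are therefore marked beside the results.

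Among the enzymes of glutathione use and peroxide removal, 11 genes rose in CKO ovaries and 1 fell. Those that rose were the transferases Gsta3, Gstm1, Gstm6, Gstt1, Gstt2, Gstt3 and Mgst1, with Gclm, Gsr, Srxn1 and Cat, and the peroxidase Gpx7 fell. Of the 53 genes, 44 passed the filter of at least 1 FPKM in at least 5 libraries, and the 11 that rose are 25.0% of these, beside 8.70% of all 13168 genes tested (limma, adjusted p under 0.05). The 1 that fell is 2.27%, beside 7.59% of all genes. In either direction, 12 of 44 were called, or 27.3%, beside 16.3% overall. The median log2 fold change was 0.28 for the 44 genes and -0.005 for all genes tested, and it was positive in 30 of the 44, or 68.2%, beside 49.3% of all genes. Every CKO library lay above every WT library in Cat, Gsta3, Gstm1 and Srxn1 (9.09%, beside 4.09% of all genes), and every CKO library lay below in Gpx7 (2.27%, beside 3.65%). Without CKO replicates 1 and 5, Cat, Gsta3, Gstm1 and Srxn1 kept the call with Gsto1 and Sod3 added, which made 6 higher. Gpx7 was joined by Prdx4 and Sod1, which made 3 lower. Of all genes tested, 702 were then called higher and 673 lower, beside 1145 and 999 with all libraries.

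**Figure D1:**
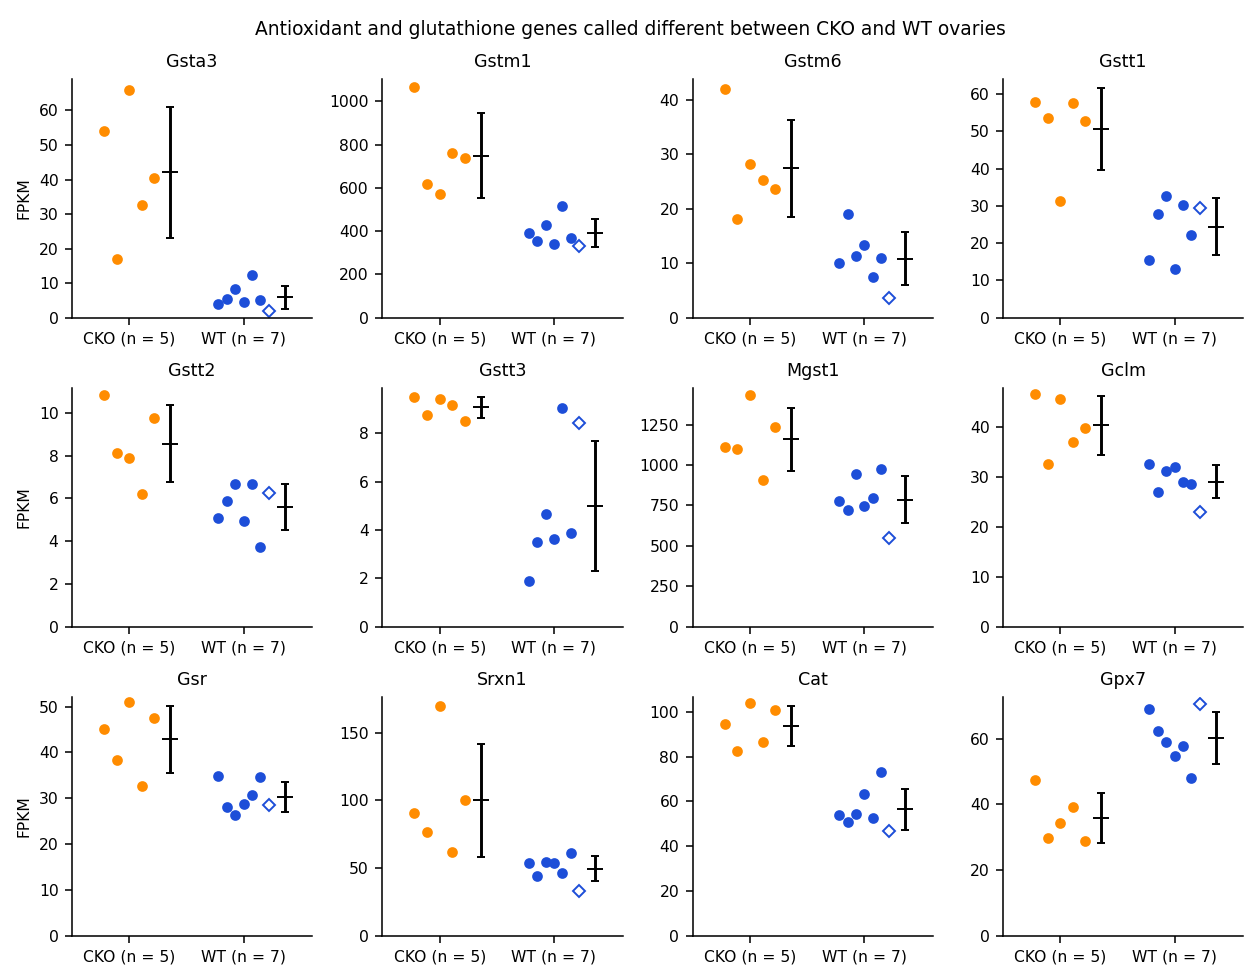
FPKM of the 12 genes called different, in 5 CKO libraries (left, orange) and 7 WT libraries (right, blue); each point is a library, the open diamond is the WT library without a replicate number, and the black mark with bars is the mean ± SD. In Gsta3, Gstm1, Srxn1 and Cat all CKO points lie above all WT points, and in Gpx7 all lie below.

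The promoters of 5 genes are shown for the letters of the NRF2 site: the 4 called genes that hold the core of an antioxidant response element near the start, and Gpx7, which fell and holds none. The sequences are from RefSeq on GRCm38.p6 and cover 250 bases before and 50 bases from the annotated start, 5′ to 3′ on the gene's strand. Gsta3 is at chr1:21240335-21240634 (plus strand), Srxn1 at chr2:152105274-152105573 (plus), Gclm at chr3:122245307-122245606 (plus), Mgst1 at chr6:138140277-138140576 (plus, the first of its starts in RefSeq) and Gpx7 at chr4:108406664-108406963 (minus). Capitals mark matches to TGANNNNGC on either strand, of which TGACNNNGC, the usual core, is the stricter form.
Gsta3: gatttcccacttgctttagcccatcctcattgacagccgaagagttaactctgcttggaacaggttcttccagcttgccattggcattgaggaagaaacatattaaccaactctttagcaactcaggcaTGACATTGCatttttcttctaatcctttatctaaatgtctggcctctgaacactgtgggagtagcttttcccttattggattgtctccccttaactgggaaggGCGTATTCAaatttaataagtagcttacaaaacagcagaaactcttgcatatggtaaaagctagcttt
Srxn1: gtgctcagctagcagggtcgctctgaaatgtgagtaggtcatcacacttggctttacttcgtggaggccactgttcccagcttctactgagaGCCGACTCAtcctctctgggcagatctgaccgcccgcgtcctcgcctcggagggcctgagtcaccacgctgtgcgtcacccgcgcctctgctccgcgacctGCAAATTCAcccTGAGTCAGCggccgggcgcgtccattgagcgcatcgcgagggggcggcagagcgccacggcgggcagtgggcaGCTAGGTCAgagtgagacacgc
Gclm: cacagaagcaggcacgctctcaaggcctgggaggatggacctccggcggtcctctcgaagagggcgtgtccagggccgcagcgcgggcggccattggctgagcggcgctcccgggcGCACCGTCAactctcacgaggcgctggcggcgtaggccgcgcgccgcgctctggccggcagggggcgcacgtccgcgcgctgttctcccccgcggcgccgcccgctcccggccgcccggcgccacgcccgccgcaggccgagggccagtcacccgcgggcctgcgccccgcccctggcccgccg
Mgst1: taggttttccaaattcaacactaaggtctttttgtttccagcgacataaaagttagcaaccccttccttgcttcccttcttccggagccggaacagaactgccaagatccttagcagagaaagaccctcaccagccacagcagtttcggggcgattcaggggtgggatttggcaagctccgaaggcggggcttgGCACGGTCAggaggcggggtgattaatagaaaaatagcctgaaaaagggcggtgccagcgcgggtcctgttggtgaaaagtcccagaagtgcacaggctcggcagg
Gpx7: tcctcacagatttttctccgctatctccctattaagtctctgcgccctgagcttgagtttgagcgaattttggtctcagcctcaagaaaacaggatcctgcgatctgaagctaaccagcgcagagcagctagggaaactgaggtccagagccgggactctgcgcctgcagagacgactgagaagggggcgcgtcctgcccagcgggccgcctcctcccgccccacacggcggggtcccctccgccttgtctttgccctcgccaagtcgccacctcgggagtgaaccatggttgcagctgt
The stricter core stands at base -121 of Gsta3 (TGACATTGC), and on the other strand at base 28 of Srxn1 (printed as GCTAGGTCA), -134 of Gclm (GCACCGTCA) and -56 of Mgst1 (GCACGGTCA), counted from the start. Srxn1 holds 3 further matches to the wider form, at -158, -57 and -45. A RefSeq promoter was found for 47 of the 53 genes. The stricter core was in 9 of these 47 (19.1%), in 4 of 9 called higher (44.4%), in 0 of the 1 called lower and in 5 of 28 tested and not called (17.9%), and it was in 12.4% of all 32851 promoters. The wider form was in 23 of 47 (48.9%), 6 of 9 called higher (66.7%), 10 of 28 not called (35.7%), 7 of 9 not tested (77.8%) and 41.3% of all promoters. Of the genes not tested, 0 of 9 held the stricter core. A gene with several starts counts as holding the letters if any start does, whereas the share of all promoters counts each start. These matches describe letters in a short window and were not compared by a test.

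The glutathione transferases, which conjugate glutathione to electrophiles, accounted for 7 of the 11 rises. Of 24 transferase genes 18 were tested, and 7 rose, or 38.9% beside 8.70% of all genes, while 0 fell, beside 7.59%. The log2 fold change was positive in 16 of the 18, and their median was 0.48. Without CKO replicates 1 and 5, 3 transferases were called higher (Gsta3, Gstm1 and Gsto1), or 16.7%, and the median was 0.45. In that setting 702 of all 13168 genes were called higher, down from 1145. Without CKO replicates 2 and 3, 5 were called higher, or 27.8%, beside 941 of all genes. In the other 29 genes, 26 were tested, 4 rose, or 15.4%, 1 fell and the median was 0.06. Without CKO replicates 1 and 5 the calls among these were 3 higher, or 11.5%, and 3 lower, beside 702 and 673 of all genes. The summed level of all 24 transferases was 2410 to 3162 FPKM in CKO ovaries and 1309 to 2027 FPKM in WT ovaries, without overlap. Mgst1 and Gstm1 made up much of that sum.

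Gsta3, an alpha-class transferase that in mammals also isomerises steroid intermediates, changed most. It was at 54.0, 17.1, 65.9, 32.8 and 40.5 FPKM in CKO replicates 1 to 5, against a lowest, median and highest of 2.06, 5.22 and 12.3 FPKM in WT. Every CKO library was above every WT library, although the CKO values themselves spread widely. The means were 42.1 ± 18.9 FPKM in CKO and 5.95 ± 3.34 FPKM in WT (SD, n = 5 and 7), a log2 fold change of 2.63 (SE 0.35, limma adjusted p = 0.000404). The gene lies at chr1:21240589-21265661 (plus strand), apart from the other alpha genes, and shares no 75-base stretch with another annotated transcript. Its relatives on chromosome 9 were not called. Gsta4, which handles lipid peroxidation products, was 24.7 ± 8.04 FPKM in CKO and 19.4 ± 8.20 FPKM in WT (log2 fold change 0.38, SE 0.31, adjusted p = 0.454). Gsta2 was below 5 FPKM in every library and shares 36.6% of its 75-base stretches with other transcripts, and Gsta1, at 0 in all but 1 library, was not tested.

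The mu class lies in 1 cluster of 7 genes at chr3:107895821-108044894, and the 6 tested members all had positive log2 fold changes, of which Gstm1 and Gstm6 passed. Gstm1, the most abundant mu transferase here, was at 1067, 616.6, 569.9, 759.3 and 736.1 FPKM in CKO replicates 1 to 5, against 332.7, 370.1 and 515.0 FPKM as lowest, median and highest in WT. All CKO libraries lay above the WT range. The log2 fold change was 0.92 (SE 0.16, limma adjusted p = 0.00183), and 11.7% of the gene's 75-base stretches are shared with neighbours or pseudogenes. Gstm6 was at 41.9, 18.1, 28.3, 25.3 and 23.6 FPKM in CKO, against 3.66, 11.1 and 19.1 FPKM in WT, so only CKO replicate 2 fell inside the WT range. Its log2 fold change was 1.33 (SE 0.29, adjusted p = 0.00723), and 1.16 without CKO replicates 1 and 5 (adjusted p = 0.0506). Gstm2 was 397.7 ± 112 FPKM in CKO and 278.3 ± 69.3 FPKM in WT (adjusted p = 0.0797 in limma), and it was called without WT replicate 6 (adjusted p = 0.0253). Gstm4 was 16.6 ± 4.35 FPKM in CKO and 12.6 ± 2.12 FPKM in WT (adjusted p = 0.157). Gstm5 and Gstm7 had adjusted p of 0.267 and 0.684. Gstm3 was below 1 FPKM in every library and was not tested.

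All 3 tested theta transferases rose, and they are neighbours within chr10:75774115-75837424. None of the 3 was called without CKO replicates 1 and 5. There the log2 fold changes were 0.95 for Gstt1, 0.36 for Gstt2 and 0.87 for Gstt3. With all libraries they were 1.05, 0.53 and 0.87. Gstt1 alone was called without CKO replicates 2 and 3. Theta enzymes act on small halogenated and epoxide substrates. Gstt1 was at 57.9, 53.4, 31.2, 57.4 and 52.8 FPKM in CKO replicates 1 to 5, against 13.03, 27.8 and 32.6 FPKM in WT. CKO replicate 3 lay inside the WT range and the other 4 CKO libraries lay above it. Gstt1 differed by 1.05 on the log2 scale (SE 0.23, limma adjusted p = 0.00654), and by 0.95 without CKO replicates 1 and 5 (adjusted p = 0.0524). Gstt2 was at 10.8, 8.12, 7.91, 6.21 and 9.78 FPKM in CKO, against 3.71, 5.87 and 6.69 FPKM in WT (log2 fold change 0.53, SE 0.16, adjusted p = 0.0326). Gstt3 was close to constant in CKO, at 9.50, 8.77, 9.41, 9.16 and 8.50 FPKM, and spread in WT, at 1.89, 3.86 and 9.03 FPKM (log2 fold change 0.87, SE 0.26, adjusted p = 0.0335). Both low-level calls were lost when some single libraries were left out: Gstt2 in 6 of 12 cases, with adjusted p up to 0.0898, and Gstt3 in 8 of 12, with adjusted p up to 0.0679. Without CKO replicates 1 and 5 the adjusted p was 0.226 for Gstt2 and 0.113 for Gstt3, and without CKO replicates 2 and 3 it was 0.0768 and 0.108. Gstt3 overlaps the annotated gene Gm20441, with which it shares 11.5% of its 75-base stretches. The fourth theta gene, Gstt4, was at 0 in every library but 1.

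Mgst1, a membrane-bound transferase that also reduces lipid peroxides, was the most abundant transferase. It was at 1111, 1102, 1434, 909.4 and 1238 FPKM in CKO replicates 1 to 5, against 546.3, 778.7 and 974.2 FPKM in WT. Only CKO replicate 4 fell inside the WT range. The log2 fold change was 0.56 (SE 0.16, limma adjusted p = 0.0276), and the call was lost in 4 of 12 cases with 1 library left out, with adjusted p up to 0.0766, and without either pair of CKO libraries, with adjusted p of 0.103 and 0.109. Mgst2 was 23.2 ± 4.39 FPKM in CKO and 19.1 ± 5.05 FPKM in WT (adjusted p = 0.317), and Mgst3 10.2 ± 5.66 FPKM in CKO and 12.3 ± 6.73 FPKM in WT (adjusted p = 0.676). None of the 3 tested omega, zeta and kappa genes was called. Gstz1, an enzyme of tyrosine breakdown, was 38.7 ± 4.77 FPKM in CKO and 38.3 ± 3.05 FPKM in WT, with a 95% interval of the log2 fold change of -0.20 to 0.21. Its locus in the deposited table is 3.3 times the gene's length and its exons overlap those of Pomt2, so its level is uncertain. Gstk1, of mitochondria and peroxisomes, was 4.99 ± 2.63 FPKM in CKO and 3.18 ± 1.13 FPKM in WT (adjusted p = 0.3). The pi genes Gstp1 and Gstp2 were listed at 0 in all libraries, and 29.2% and 50.1% of their 75-base stretches are shared, mainly between them.

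**Figure D2:**
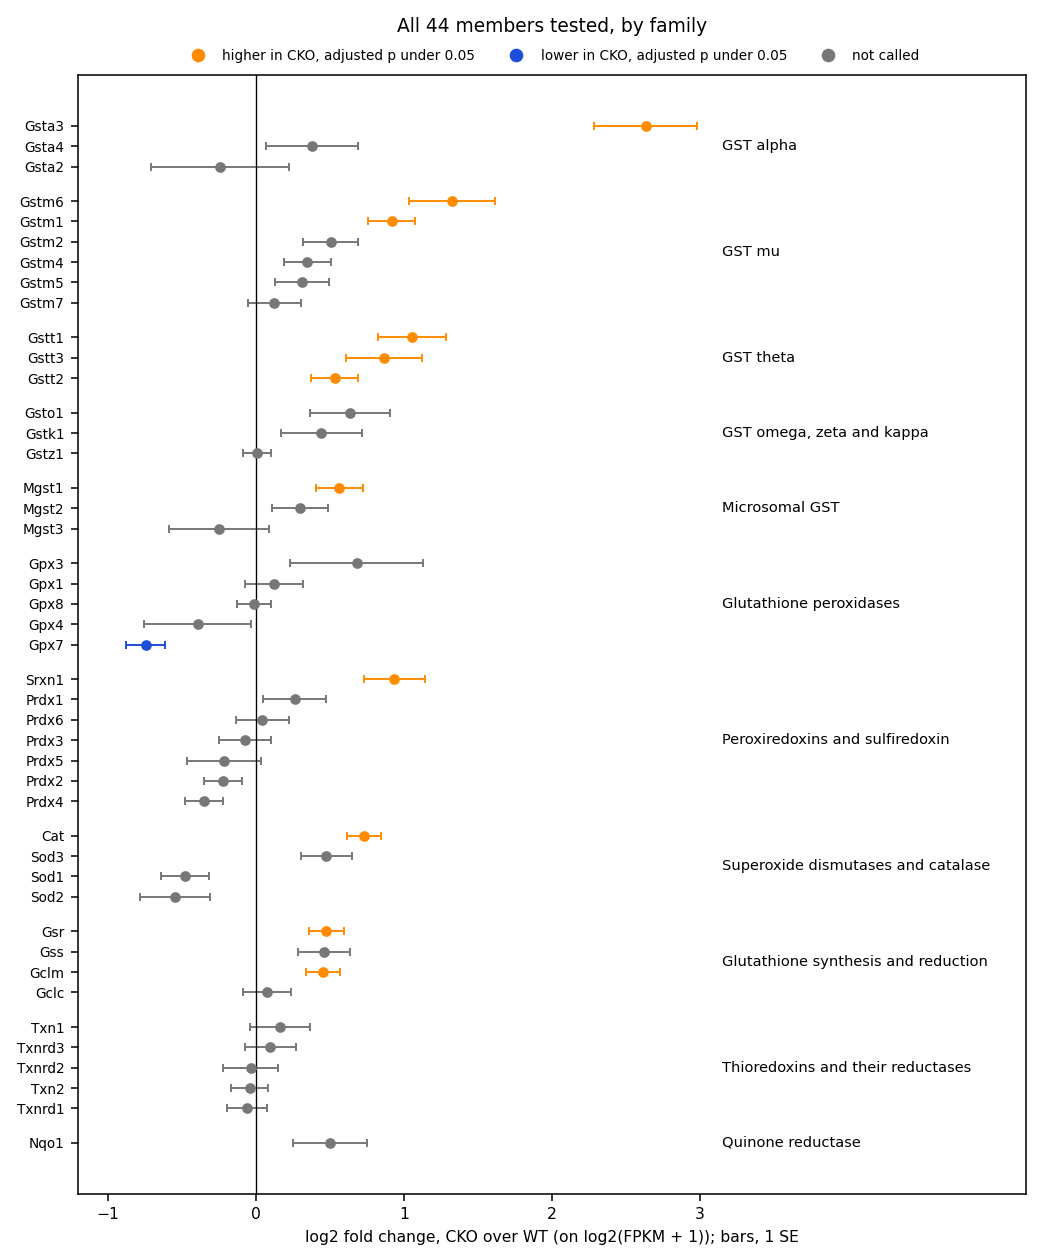
Log2 fold change of CKO over WT, on log2(FPKM + 1), for the 44 genes tested, grouped by family; bars are 1 SE, orange marks genes called higher in CKO, blue a gene called lower, and grey those not called. Gsta3 stands at 2.63, the 3 theta genes are all orange, and Gpx7 is the only blue point.

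In glutathione synthesis and reduction, the modifier subunit and the reductase rose while the catalytic subunit was not called. Gclm, which raises the activity of glutamate-cysteine ligase, was at 46.7, 32.7, 45.7, 37.0 and 39.9 FPKM in CKO replicates 1 to 5, against 23.1, 29.1 and 32.7 FPKM in WT. Its lowest CKO library, replicate 2, lay just inside the WT range. In limma it differed by 0.46 on the log2 scale (SE 0.11, adjusted p = 0.0142), and by 0.38 without CKO replicates 1 and 5 (adjusted p = 0.0913). Gclc, the catalytic subunit, was 45.9 ± 4.97 FPKM in CKO and 44.6 ± 11.8 FPKM in WT, with a log2 fold change of 0.07 and a 95% interval of -0.27 to 0.42. Gsr was at 45.0, 38.3, 50.9, 32.7 and 47.4 FPKM in CKO, against 26.4, 28.8 and 34.9 FPKM in WT. All but CKO replicate 4 lay above the WT range, and the log2 fold change was 0.48 (SE 0.12, adjusted p = 0.0133). The call of Gsr was lost without CKO replicates 1 and 5 (adjusted p = 0.0973) and without CKO replicates 2 and 3 (adjusted p = 0.0523). Gss, which completes glutathione, was 13.4 ± 2.65 FPKM in CKO and 9.58 ± 2.46 FPKM in WT (log2 fold change 0.46, adjusted p = 0.0957), and it was called without CKO replicate 2 (adjusted p = 0.0444). Its exons overlap those of Acss2.

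Srxn1, which repairs over-oxidised peroxiredoxins at the cost of ATP, rose. It was at 90.6, 76.7, 169.6, 62.0 and 100.2 FPKM in CKO replicates 1 to 5, against 33.1, 53.7 and 61.0 FPKM in WT. The groups did not overlap, with CKO replicate 4 just above the WT range and CKO replicate 3 far above it. Srxn1 differed by 0.94 on the log2 scale (SE 0.21, limma adjusted p = 0.00756). None of the 6 peroxiredoxins was called, among them Prdx1 to Prdx4, the typical substrates of sulfiredoxin, and 2 had positive and 4 negative log2 fold changes. Prdx1, the most abundant, was at 487.8, 287.1, 393.1, 351.3 and 506.9 FPKM in CKO, against 186.7, 364.9 and 456.8 FPKM in WT (log2 fold change 0.26, SE 0.21, adjusted p = 0.443). Prdx4, of the endoplasmic reticulum, was 31.5 ± 5.43 FPKM in CKO and 40.3 ± 6.24 FPKM in WT (log2 fold change -0.35, adjusted p = 0.0754), and it was called without CKO replicate 1 (adjusted p = 0.0465). Prdx2, Prdx3, Prdx5 and Prdx6 had adjusted p between 0.272 and 0.896.

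Catalase, the peroxisomal enzyme that splits hydrogen peroxide, rose with little spread. Cat was at 94.7, 82.7, 104.0, 86.5 and 100.9 FPKM in CKO replicates 1 to 5, against 46.8, 53.9 and 73.4 FPKM in WT. Every CKO library was above every WT library, and the means were 93.8 ± 9.10 FPKM in CKO and 56.4 ± 8.97 FPKM in WT (SD, n = 5 and 7). The log2 fold change was 0.73 (SE 0.11, limma adjusted p = 0.000881). None of the 3 superoxide dismutases was called, with negative log2 fold changes in Sod1 and Sod2 and a positive one in Sod3. Sod1, the cytosolic form, was at 57.4, 53.0, 72.4, 68.3 and 106.3 FPKM in CKO, against 80.4, 98.5 and 130.6 FPKM in WT. In 4 of 5 CKO libraries Sod1 was below the WT range and CKO replicate 5 was above the WT median (log2 fold change -0.48, SE 0.16, adjusted p = 0.0587), and without that library the adjusted p was 0.00946. Sod2, the mitochondrial form, was 24.6 ± 3.87 FPKM in CKO and 38.3 ± 13.2 FPKM in WT (log2 fold change -0.54, adjusted p = 0.134). Of its 75-base stretches 16.2% are shared with other transcripts. The unnumbered WT library held the lowest Sod2 value of all 12, at 16.2 FPKM, and without it the log2 fold change was -0.73 (adjusted p = 0.00618). Sod3, the extracellular form, was 196.5 ± 44.4 FPKM in CKO and 140.7 ± 27.5 FPKM in WT (log2 fold change 0.48, adjusted p = 0.0756), and it was called without CKO replicate 1 (adjusted p = 0.0455).

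Gpx7, a peroxidase of the endoplasmic reticulum that supports disulfide formation, was the only gene of the set that fell. It was at 47.4, 29.8, 34.3, 39.1 and 28.8 FPKM in CKO replicates 1 to 5, against 48.1, 59.1 and 70.7 FPKM in WT. Every CKO library was below every WT library, with CKO replicate 1 just below the WT range. The means were 35.9 ± 7.64 FPKM in CKO and 60.2 ± 7.90 FPKM in WT (log2 fold change -0.74, SE 0.13, limma adjusted p = 0.00201). Gpx8, its membrane-bound relative in the same compartment, was 88.9 ± 8.28 FPKM in CKO and 90.1 ± 14.7 FPKM in WT, with a 95% interval of the log2 fold change of -0.26 to 0.24. The locus of Gpx8 in the deposited table is 15.2 times the gene's length, so its level is uncertain. Gpx1, the cytosolic selenium-dependent form and the second most abundant gene of the set, was 1014 ± 183 FPKM in CKO and 945.6 ± 251 FPKM in WT (log2 fold change 0.13, SE 0.20, adjusted p = 0.723). Gpx4, which reduces lipid hydroperoxides in membranes, was listed between 0 and 3.04 FPKM. Its locus in the deposited table is 72.5 times the length of the annotated gene and 29.8% of its 75-base stretches occur in a pseudogene, so its level is uncertain.

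Gpx3, the secreted peroxidase, was the most abundant of the 53 genes and carried 36.1 ± 14.5% of their summed FPKM in CKO and 30.7 ± 8.87% in WT. It was at 1458, 5171, 6854, 2459 and 2241 FPKM in CKO replicates 1 to 5, against 585.9, 1970 and 3587 FPKM in WT. CKO replicates 2 and 3 lay above the WT range and the other 3 CKO libraries lay inside it. The log2 fold change of 0.68 (SE 0.45) was not called (limma adjusted p = 0.34). Gsto1, an omega transferase that acts as a thiol reductase, had the same 2 high libraries, at 39.3, 115.5, 162.8, 57.4 and 63.7 FPKM in CKO, against 41.6, 48.6 and 62.8 FPKM in WT (log2 fold change 0.64, SE 0.27, adjusted p = 0.129), and it was called without CKO replicate 1 (adjusted p = 0.0282). These libraries are also those with oviduct transcripts. The 5 oviduct markers summed to 259.7 FPKM in CKO replicate 2 and 84.5 FPKM in CKO replicate 3, against at most 2.26 FPKM in the other 10 libraries. Of these sums Ovgp1 alone gave 252.4 and 81.9 FPKM. Foxj1 was at 4.72 and 1.48 FPKM, Pax8 at 2.36 and 1.06 FPKM, Dnah5 at 0.19 and 0 FPKM, and Sec14l3 at 0 in both. The oviduct sum was higher in CKO replicate 2, whereas Gpx3 and Gsto1 were higher in CKO replicate 3. Without CKO replicates 2 and 3, the log2 fold change was 0.05 for Gpx3 and 0.09 for Gsto1. The luteal marker sum was 2226, 5054, 8006, 3626 and 3808 FPKM in CKO replicates 1 to 5. It was 7315 FPKM in WT replicate 7 and 5197 FPKM in WT replicate 4, where Gpx3 was at 3210 and 1970 FPKM. In the unnumbered WT library it was 256.5 FPKM, with Gpx3 at 585.9 FPKM. Sfrp4 alone gave 4223 and 7013 FPKM of the luteal sums in CKO replicates 2 and 3, and 5095 FPKM in WT replicate 7. Other luteal markers differed in direction. In CKO replicates 2 and 3 Hsd17b7 was at 87.4 and 140.4 FPKM (WT median 579.5), and Ptgfr at 275.3 and 283.5 FPKM (WT median 178.1). Of the 8 luteal markers, 0 were called higher and 1 lower. The part of oviduct or luteal tissue in the Gpx3 and Gsto1 values was not tested.

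**Figure D3:**
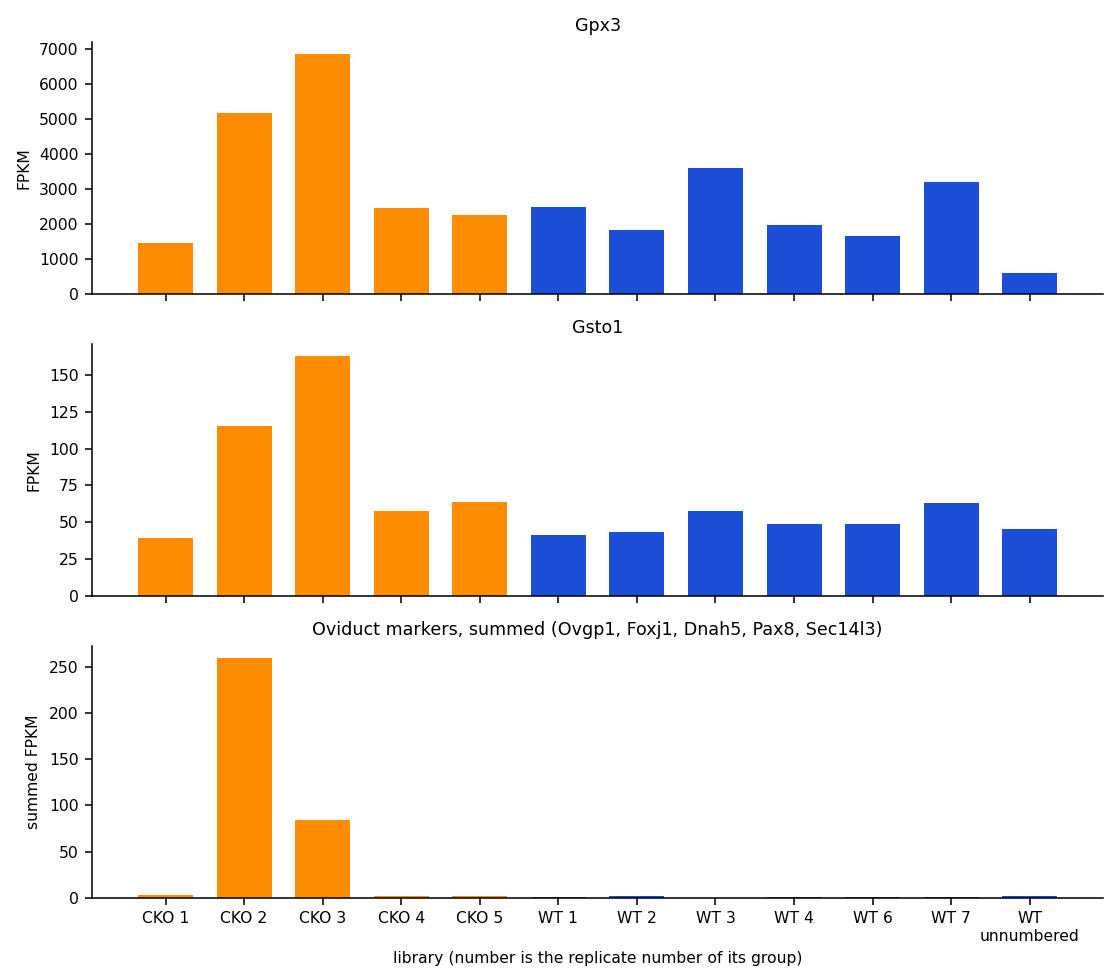
FPKM of Gpx3 and Gsto1 and the summed FPKM of 5 oviduct markers in each library, CKO (orange) left of WT (blue). Gpx3 and Gsto1 are highest in CKO replicates 2 and 3, which are also the libraries where the oviduct markers reach 259.7 and 84.5 FPKM. Ovgp1 alone gives 252.4 and 81.9 FPKM of these sums.

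The thioredoxin system was not called in any of its 5 genes. Txn1, the cytosolic thioredoxin, was at 94.7, 37.1, 56.4, 54.8 and 88.5 FPKM in CKO replicates 1 to 5, against 44.1, 58.2 and 68.3 FPKM in WT (log2 fold change 0.17, SE 0.20, limma adjusted p = 0.635). CKO replicates 1 and 5, which also had the highest macrophage and red cell marker sums, lay above the WT range, and without them the log2 fold change was -0.20. Txnrd1, the cytosolic reductase and a selenoprotein, was 60.3 ± 10.2 FPKM in CKO and 62.6 ± 9.44 FPKM in WT, with a 95% interval of the log2 fold change of -0.35 to 0.23. The mitochondrial Txn2 was 147.6 ± 24.9 FPKM in CKO and 151.0 ± 18.7 FPKM in WT, with an interval of -0.31 to 0.23. Nqo1, a quinone reductase widely used as an NRF2 readout, was at 9.75, 9.79, 13.2, 8.36 and 8.08 FPKM in CKO, against 3.11, 5.85 and 13.8 FPKM in WT. All 5 CKO libraries exceeded the WT median and none exceeded the WT maximum (log2 fold change 0.50, SE 0.25, adjusted p = 0.193), and without WT replicate 6, the highest WT library, the adjusted p was 0.0428. The locus of Nqo1 in the deposited table is 20.2 times the gene's length, so its level is uncertain too.

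The authors' deposited table, which comes from Cuffdiff, lists 13 of the 44 genes as higher and 2 as lower at q under 0.05, beside 8.14% and 6.70% of all genes tested. Of these 15, limma called 11 with the same sign. The 4 called in the authors' deposited table alone were Gstm2, Gsto1, Sod3 and Sod2, and Gstt2 was called here alone.

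The genes around this system were read from 8 lists with 111 genes, of which 101 were tested, 28 rose and 2 fell, beside the 8.70% and 7.59% of all genes tested. Without CKO replicates 1 and 5, 16 of the 101 rose, beside 702 of all 13168 genes tested. Of the genes known to respond to NRF2 outside the enzymes above, 11 of 17 tested, or 64.7%, were higher and 0 lower. Their median log2 fold change was 0.76 over the 17. The 11 were Hmox1, Osgin1, Blvrb, Ftl1, Fth1, Ugdh, Cbr3, Aox1, Abcc1, Abcc4 and Akr1b8. Without CKO replicates 1 and 5, 9 of 17 were higher, or 52.9%, beside 702 of all 13168 genes. Osgin1, Abcc4 and Akr1b8 then lost the call and Me1 was added. Without CKO replicates 2 and 3, Abcc4 lost the call and Ptgr1 was added. Of the 17 tested, 8 had every CKO library above every WT library, beside 4.09% of all genes tested. Hmox1, haem oxygenase, was at 318.3, 226.5, 228.7, 303.0 and 262.9 FPKM in CKO replicates 1 to 5, against 67.5, 96.1 and 131.2 FPKM in WT (log2 fold change 1.49, SE 0.16, limma adjusted p = 0.000212). The CKO values were all well above the WT range. Abcc1, an exporter of glutathione conjugates, was 9.69 ± 1.87 FPKM in CKO and 5.24 ± 0.433 FPKM in WT (log2 fold change 0.76, SE 0.13, adjusted p = 0.00146). Hmox1, Blvrb, Ftl1 and Fth1 degrade haem or store its iron and are also highly expressed in macrophages, whose markers rose in 11 of 12 cases. The part of macrophage content in these values was not tested. Among NRF2 and its regulators, Nfe2l2 rose, at 149.2 ± 18.5 FPKM in CKO and 112.9 ± 9.66 FPKM in WT (log2 fold change 0.40, SE 0.10, adjusted p = 0.0144), Nfe2l1 fell, at 197.7 ± 34.6 FPKM in CKO and 261.1 ± 33.6 FPKM in WT (log2 fold change -0.41, SE 0.13, adjusted p = 0.0439), and 8 others were not called. The call of Nfe2l1 was lost in 10 of 12 cases with 1 library left out, and that of Nfe2l2 without CKO replicates 1 and 5. Keap1 was 36.3 ± 3.82 FPKM in CKO and 35.1 ± 3.84 FPKM in WT, with a 95% interval of the log2 fold change of -0.17 to 0.26.

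Of the 10 tested oxidases that produce superoxide or peroxide, 7 rose, or 70.0% beside 8.70% of all genes, with a median log2 fold change of 1.07. They were the phagocyte oxidase genes Cybb, Cyba, Ncf1 and Rac2, and Xdh, Maoa and Maob. Xdh, which makes urate and can release superoxide, was at 12.7, 7.84, 12.1, 10.3 and 9.95 FPKM in CKO replicates 1 to 5, against 1.81, 2.47 and 4.42 FPKM in WT (log2 fold change 1.54, SE 0.20, limma adjusted p = 0.000404). The groups were well apart. Cyba, a membrane subunit of the phagocyte oxidase, was at 161.3, 58.1, 52.9, 79.0 and 103.0 FPKM in CKO, against 23.5, 31.0 and 45.7 FPKM in WT (log2 fold change 1.32, SE 0.26, adjusted p = 0.00347). The phagocyte oxidase belongs to macrophages and neutrophils. Cybb and Cyba were highest in CKO replicates 1 and 5, where macrophage markers summed to 4307 and 4650 FPKM. Among CKO libraries Rac2 was highest there too, at 13.9 and 7.98 FPKM. Ncf1 and the uncalled Ncf4 were instead highest in CKO replicates 1 and 4 of the CKO libraries. In CKO replicate 5 Ncf1 was at 6.54 FPKM, against 11.3 and 8.16 FPKM in CKO replicates 1 and 4. Without CKO replicates 1 and 5, Cyba, Xdh and Maob were called, and the median log2 fold change of the 10 was 0.90. Cybb was then at 1.00 (SE 0.34, adjusted p = 0.0823) and Cyba at 0.90 (SE 0.22, adjusted p = 0.0227). Without CKO replicates 2 and 3, 7 of the 10 were called, with Ncf4 added and Maoa lost. Maoa was thus not called without either pair of CKO libraries. The part of macrophage content in these values was not tested.

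**Figure D4:**
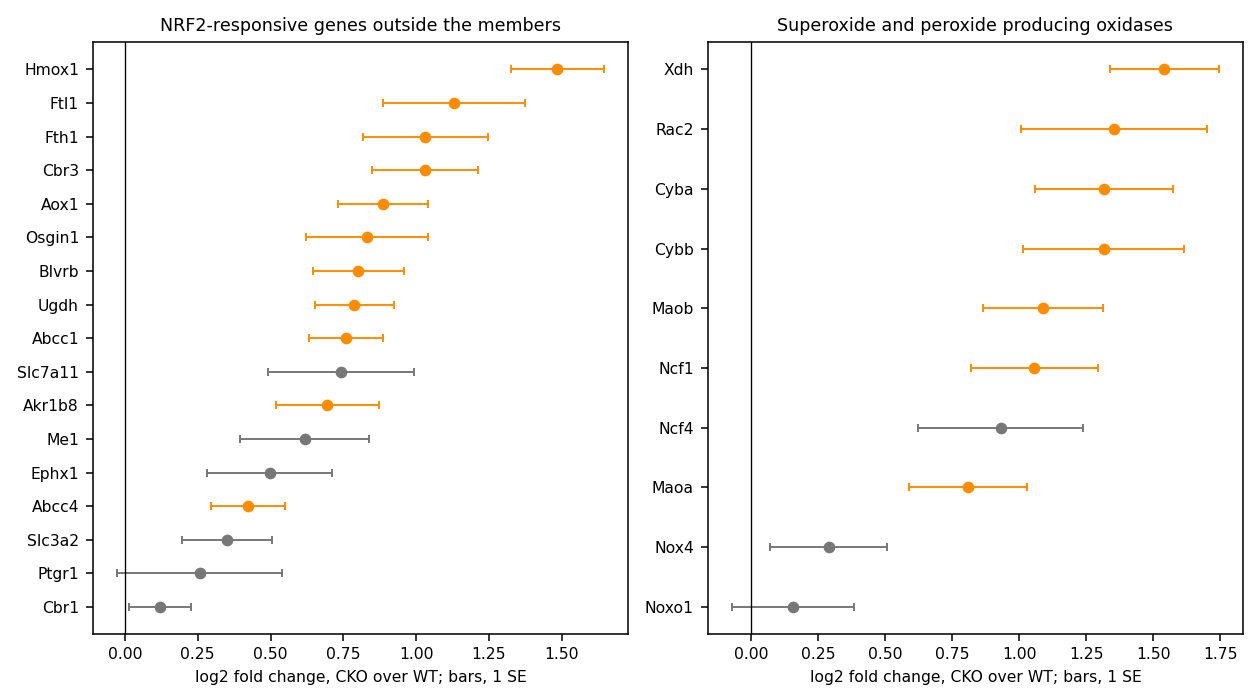
Log2 fold change of CKO over WT for the 17 tested NRF2-responsive genes (left) and the 10 tested oxidases (right); bars are 1 SE, orange marks genes called higher in CKO and grey those not called. Hmox1, at 1.49, and Xdh, at 1.54, lead the panels, and all points lie above 0.

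In the other 5 lists, 9 of 64 tested genes rose, or 14.1% beside 8.70% of all genes, and 1 fell. Without CKO replicates 1 and 5, 4 rose, or 6.25%, and 2 fell, beside 702 and 673 of all 13168 genes. In NADPH supply, 1 of 9 tested genes rose, the pentose phosphate enzyme Pgd, at 108.3 ± 24.2 FPKM in CKO and 77.1 ± 6.31 FPKM in WT (limma adjusted p = 0.0299). In glutathione turnover and glutaredoxins, 2 of 13 rose, both cell-surface peptidases: Ggt5 was 19.2 ± 3.99 FPKM in CKO and 8.17 ± 1.80 FPKM in WT (log2 fold change 1.14, adjusted p = 0.000548), and Anpep 17.1 ± 4.78 FPKM in CKO and 7.49 ± 3.003 FPKM in WT (log2 fold change 1.11, adjusted p = 0.00459). Among thioredoxin-linked genes 1 of 15 rose, Msrb2, a mitochondrial methionine sulfoxide reductase, at 42.1 ± 7.32 FPKM in CKO and 31.3 ± 2.67 FPKM in WT (adjusted p = 0.0196). Of 21 tested selenoprotein and selenium-handling genes 4 rose and 1 fell, and 2 rose without CKO replicates 1 and 5. Sepp1, the plasma selenium carrier, was at 989.4, 940.5, 933.9, 1049 and 1073 FPKM in CKO replicates 1 to 5, against 398.5, 528.6 and 642.6 FPKM in WT (log2 fold change 0.98, SE 0.13, adjusted p = 0.000404), and the groups were well apart. Dio3, which inactivates thyroid hormone, was 19.8 ± 7.02 FPKM in CKO and 6.84 ± 3.05 FPKM in WT (log2 fold change 1.47, adjusted p = 0.00441). Among 6 metallothionein and copper chaperone genes 1 rose, the metal-binding Mt2, at 168.5 ± 32.0 FPKM in CKO and 101.3 ± 43.5 FPKM in WT (adjusted p = 0.035). With 1 library left out, the call of Pgd was lost in 5 of 12 cases and that of Mt2 in 7. Pgd was also not called without CKO replicates 1 and 5. Mt2 and Msrb2 were not called without either pair of CKO libraries.

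The 9 genes of the set that were not tested were Gpx2, Gpx5, Gpx6, Gsta1, Gstm3, Gsto2, Gstp1, Gstp2 and Gstt4, all at or below 0.951 FPKM in every library, and Gpx5, Gstp1 and Gstp2 were listed at 0 throughout. Across all 53 genes, 1 averaged over 1000 FPKM, 10 lay at 100 to 1000, 23 at 10 to 100 and 10 at 1 to 10 FPKM. The unnumbered WT library was the lowest WT library in 21 of the 44 tested genes and the highest in 6. CKO replicate 1 was the highest CKO library in 17, CKO replicate 3 in 15 and CKO replicate 2 in 0.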

How the data were processed

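Per the labels, polyadenylated RNA of whole ovaries was made into libraries with random primers. The submitters' processing notes name the build mm10, TopHat2 2.0.13, Cufflinks 2.2.1 and Cuffdiff. For annotation, scaling and strand use, the sources used here give nothing. The authors deposited FPKM for 24255 genes in 12 columns, with a log2 ratio, a p-value and a q-value of their own. The authors' log2 ratio runs CKO over WT, as the means of 99.9% of 13051 genes give it to within 0.01. The name of 1 WT column matches the labels of more than 1 sample, so it is called the unnumbered WT library.

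From there, log2(FPKM + 1) was fitted for genes with at least 1 FPKM in at least 5 libraries, 13168 in all, with limma 3.58.1 in R 4.3.3 (trended empirical Bayes, genotype as the only term, two-sided, Benjamini-Hochberg over all genes, threshold 0.05). Adjusted p in the text come from it, intervals are limma's 95% intervals, and fold changes on this scale understate low genes. On simulated data for this comparison (13168 genes, 200 changed), limma found 76% of log2 changes of 1 and 98% of log2 changes of 2, and 4.9% of what it called had not been changed. Libraries correlated at 0.902 to 0.971, so none was a duplicate.

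The genes named are all called genes of the set, the lowest p in each family without a call, the 5 highest means, up to 2 called genes of each list, and Mtor; others were named after their values were seen. Members and lists were chosen with earlier results of these data known, and 1 list gene is not reported here. Gene coordinates come from GENCODE M21 on GRCm38, and 75-base stretches were compared between its transcripts. Alternatives covered the pseudocount, the filter, 3 scalings (median of ratios, TMM and upper quartile), sample weights, an exact Wilcoxon test, limma without trend, each library left out, 2 pairs of CKO libraries left out and a replicate block.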

Additional observations from a re-analysis of the deposited data

Results flagged for a closer look

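Among 90 gene-by-genotype groups, 5 (5.56%) had a library that stood apart from the rest of its group by Dixon's test, beside the 5% that chance gives. Gstt1 was at 31.21 FPKM in CKO replicate 3, below the nearest CKO library at 52.77 FPKM. Txnrd3 was at 3.695 FPKM in CKO replicate 5, with the nearest CKO library at 5.688 FPKM. Mtor was at 5.879 FPKM in CKO replicate 3, above the nearest CKO library at 4.953 FPKM. Mgst3 was at 26.15 FPKM in WT replicate 7, with the nearest WT library at 12.63 FPKM. The unnumbered WT library held 53.14 FPKM of Prdx4, above the nearest WT library at 41.28 FPKM.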

How the results depend on the processing

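Cat, Gpx7, Gsta3, Gstm1 and Srxn1 were called under all 25 alternatives, and Gclm, Gsr, Gstm6, Gstt1, Gstt2, Gstt3 and Mgst1 lost the call under at least 1. With 1 library left out, the genes of the set called higher numbered 8 to 13 and those called lower 1 to 2, beside 11 and 1, the lower count being 2 without CKO replicate 1, CKO replicate 5 or the unnumbered WT library. The list genes numbered 23 to 29 higher and 1 to 3 lower, beside 28 and 2, and all genes 893 to 1200 higher and 737 to 1106 lower, beside 1145 and 999. Without CKO replicates 1 and 5, a setting with fewer libraries, 6 genes of the set were higher and 3 lower, with 16 list genes and 702 of all genes higher. The exact Wilcoxon test gave 7 genes of the set, 749 of all genes higher and 1 list gene lower, and the cause was not tested. The lower list count was also 1 with no filter and with limma without trend. Txn1 turned to -0.20 (log2) without CKO replicates 1 and 5, and Gpx1 to -0.00024 without CKO replicates 2 and 3, both uncalled throughout. Scalings left the median gene within 0.01 of 0.

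Replicate numbers are shared by CKO and WT libraries, but same-numbered libraries did not deviate together (correlations -0.033, 0.09, 0.04 and -0.071 for numbers 1 to 4, none the highest with its own number), so the numbers do not pair them. With a replicate block the calls were 5 higher and 3 lower in the set, 1 list gene lower, and 752 higher and 622 lower of all genes, and Txn1 was -0.049.

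Depth is not stated, low FPKM rest on few fragments, and a 0 need not mean no RNA. Shared sequence or overlapping exons limit Gpx4, Gsta2, Gstm1, Gstt3, Gss, Sod2, Prdx5 and Gstz1, among others. Overlong deposited loci limit Gpx4, Nqo1, Gpx8, Gstm5, Gstz1 and Txnrd2. Whole-ovary RNA does not tell cell number and RNA per cell apart.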
